A study of Homo sapiens with 4 samples.

Results

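A set of 10 genes for chromatin and DNA modifiers, several of them often mutated in lymphoma, was followed by RNA sequencing in NUDUL1, an established human line of diffuse large B cell lymphoma of the germinal center type (GCB-DLBCL). They were the Polycomb repressive complex 2 (PRC2) genes EZH1, EZH2, EED and SUZ12, the acetyltransferase genes CREBBP and EP300, the DNA methylation genes DNMT1, DNMT3A and TET2, and the SWI/SNF gene ARID1A. Each was found by its symbol, so 10 of 10 members were present among 25066 genes, and all 10 passed the filter on low values that left 16945 genes to be tested. Their rule uses gene symbols and no measured value, although they were picked with earlier results of these data known.

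All 4 libraries came from a Cas9-inducible NUDUL1 clone transduced with the thromboxane receptor Tbxa2r, and all were treated with 10 nM U46619, a stable thromboxane A2 mimetic that signals through Gα13 in such cells, for 24 h. The comparison was of 2 libraries against 2, from cells given a control sgRNA and from cells given a GNA13 sgRNA (labelled GNA13-deficient), with 1 sgRNA per genotype. There were no untreated cells, and nothing in the labels says whether the duplicates were separate cultures, so p values measure only the spread between these libraries, which may be technical. Total mapped reads were 29209544 and 31537955 in the control libraries, against 30141459 and 29685942 in those labelled GNA13-deficient. Values are log2 normalized reads per gene as deposited. Differences are GNA13-deficient minus control on the log2 scale, with standard errors and adjusted p values from limma over all genes tested.

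GNA13, the targeted gene, checks the labels first. Its log2 values were 12.46 and 12.45 in control against 13.10 and 13.11 in the pair labelled GNA13-deficient. It was thus 0.65 higher (SE 0.05, adjusted p = 0.00214 from limma) where its disruption is labelled. A Cas9 cut alters the coding sequence and need not lower the mRNA, so this level is a weak check of the labels, and no measure of the Gα13 protein was used here. Directions are given as the labels have them. B cell markers were present in both genotypes. The 8 B cell markers examined summed to 60616 and 64631 normalized reads in control against 57357 and 61716 in the GNA13-deficient pair, with CD79B the most abundant. Of 7 germinal center markers, MME (CD10) was near 14 on the log2 scale in every library, and SERPINA9 was listed at 0 in all 4. In control replicate 2 a listed 0 can also be 1 read. BCL6, a defining repressor of germinal center B cells, was lower, at 10.75 and 10.90 in control against 8.23 and 8.44 (difference -2.49, adjusted p = 0.000850 from limma), and so was LMO2, at 8.11 and 8.05 against 4.13 and 4.63 (difference -3.70, adjusted p = 0.00169 from limma). BCL6 and LMO2 are singled out after their values were seen. Among the 5 T cell markers, CD3D, CD3E and CD2 were listed at 0 in every library. The listed values summed to at most 5.09 normalized reads, with CD8A the most abundant. Summed levels of other lists also differed, and no sum was tested. XBP1, which dominates the plasma cell sum given next, did not pass by itself (difference -0.26, adjusted p = 0.0646 from limma). The 5 myeloid markers, led by ITGAM, summed to 228 and 242 normalized reads in control against 28.7 and 26.9, the 4 plasma cell markers, led by XBP1, to 7114 and 7771 against 5616 and 6222, and the 6 epithelial and stromal markers, led by EPCAM and with KRT19 at 0, to 46.8 and 49.2 against 112 and 115. Their part in the results that follow was not tested.

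PRC2 places methyl groups on lysine 27 of histone H3, a mark of silent genes. EZH2 and its paralog EZH1 are alternative catalytic subunits, EED reads the mark and stimulates the enzyme, and SUZ12 holds the complex together. EZH2 is highly expressed in dividing germinal center B cells, and EZH1 is the form better known from resting cells. CREBBP and EP300 acetylate histones at enhancers, DNMT1 copies DNA methylation after replication, DNMT3A sets it anew, TET2 oxidizes methylcytosine, and ARID1A is a DNA-binding subunit of the BAF form of the SWI/SNF nucleosome remodeler.

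Of the 10 members, 4 rose (EZH2, SUZ12, EED and DNMT1), 1 fell (DNMT3A) and 5 did not pass the test (EZH1, CREBBP, EP300, TET2 and ARID1A). This is 50% of members, against 29.7% of all genes tested with an adjusted p under 0.05 from limma, of which 13.1% were higher and 16.6% lower. Among the 6974 genes at least as abundant as the lowest member, EZH1, the share was 39.8%. The genotypes did not overlap for 6 of 10 members, close to the 65.3% of all genes for which this was so. The members' median difference was 0.01, against -0.02 for all genes tested. With any 1 of the 4 libraries left out, 1 residual degree of freedom was left and limma called 0 of 16945 genes (5257 to 5600 had an unadjusted p under 0.05), so these fits say nothing of single calls. In them the difference ranged from 0.65 to 0.83 for EZH2, 0.36 to 0.55 for SUZ12, 0.20 to 0.23 for EED, 0.67 to 0.81 for DNMT1 and -0.40 to -0.29 for DNMT3A. Centring each library on its median gene adds the same amount to the difference of every gene. It moved the median difference of all genes from -0.02 to 0.18, and with it the EZH2 difference to 0.95 and that of DNMT3A to -0.14.

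**Figure D1:**
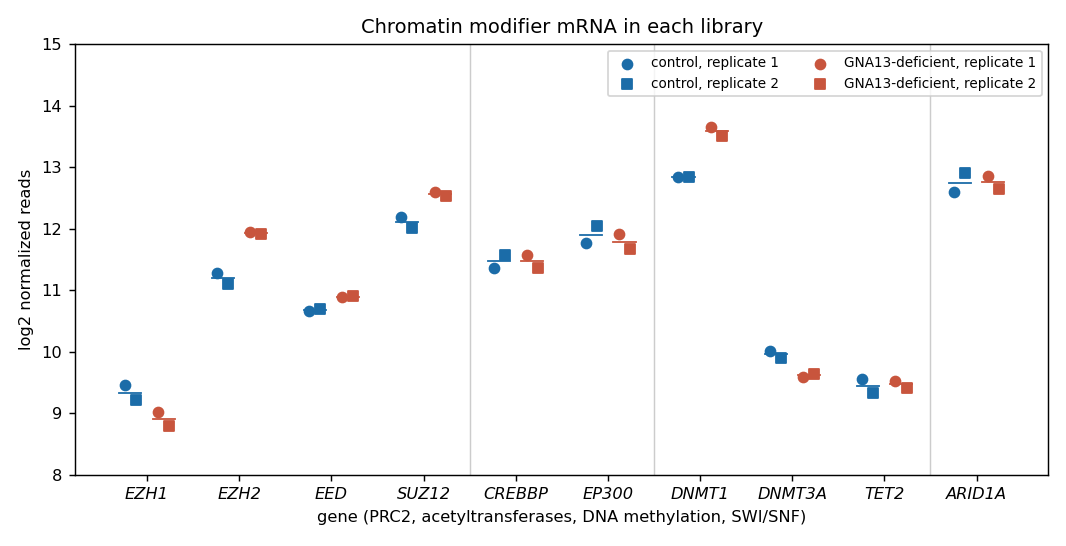
Log2 normalized reads (y axis) of the 10 chromatin modifier genes (x axis) in each of the 4 libraries, with control in blue, GNA13-deficient in red and a line at each genotype's mean. EZH2, SUZ12, EED and DNMT1 lie higher and EZH1 and DNMT3A lower in both red libraries, while the colors interleave for CREBBP, EP300, TET2 and ARID1A.

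Within PRC2, EZH2 and EZH1 differed in opposite directions. EZH2 (Entrez 2146, chromosome 7 from 148504349 to 148581413 on the minus strand of GRCh37, the same assembly as hg19) had log2 values of 11.29 and 11.10 in control against 11.95 and 11.91 in the pair labelled GNA13-deficient. Both of the latter lay well above both controls. The rise was 0.74 (SE 0.08, 95% confidence interval 0.54 to 0.94, adjusted p = 0.00387 from limma), or 1.67-fold, with about 2452 and 2236 reads in control and 3850 and 3587 in the others. The EZH2 call was lost when genes were not filtered on low values. EZH1 (Entrez 2145, chromosome 17 from 40852293 to 40897067, minus strand) had values of 9.46 and 9.22 in control and 9.03 and 8.79 in the others. The genotypes did not overlap, but replicates of each genotype were 0.24 and 0.23 apart, and the difference of -0.43 (SE 0.13, 95% confidence interval -0.76 to -0.10) did not pass the threshold (adjusted p = 0.0650 from limma). EZH1 was called when fewer low genes were tested. The adjusted p from limma was 0.0132 over genes at or above the median abundance. Over genes with 2 reads in at least 2 libraries it was 0.0370. EZH1 was also called with the replicate number as a block (adjusted p = 0.00905 from limma). No source says that this number pairs the libraries. After median centring the EZH1 difference was -0.22 and after quantile normalization -0.32, and neither was called.

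SUZ12, the scaffold (Entrez 23512, chromosome 17 from 30264026 to 30328057, plus strand), had values of 12.20 and 12.01 in control against 12.59 and 12.53 in the pair labelled GNA13-deficient. Its rise of 0.46 (SE 0.08, adjusted p = 0.0155 from limma) was 1.37-fold, and this call was lost with no filter and without a variance trend. EED, the reader of the mark (Entrez 8726, chromosome 11 from 85912254 to 85989855, plus strand), had values of 10.66 and 10.70 in control and 10.89 and 10.90 in the others. Its replicates were only 0.03 and 0.01 apart. The rise of 0.21 (SE 0.05, adjusted p = 0.0369 from limma) was the smallest difference among the members that passed. After quantile normalization, without a variance trend and under voom on recovered reads the EED call was lost, while its direction stayed. After median centring its difference was 0.42.

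Other PRC2 genes were read from the same fit. Of 14 PRC2 subunits and cofactors, 13 were tested, with 6 called higher and 2 called lower and a median of 0.03. Calls made up 61.5% of the genes tested, against 29.7% of all genes and 39.8% of genes at least as abundant as EZH1. Leaving out the 4 members, 3 of 9 were called higher and 2 lower. RBBP7, a histone-binding subunit, rose by 0.84 (SE 0.06), from 13.33 and 13.24 to 14.11 and 14.14. Its paralog RBBP4 rose by 0.30 (SE 0.06). PHF19, a cofactor that helps bring the complex to chromatin, rose by 0.36 (SE 0.06), whereas JARID2, which belongs to a different form of PRC2, fell by 0.44 (SE 0.05). Adjusted p values of these 4 genes lay between 0.00210 and 0.0194 in limma. After quantile normalization RBBP4 was only 0.13 higher and not called (adjusted p = 0.165 from limma), while median centring put it at 0.51 and JARID2 at -0.23. Without a variance trend RBBP4, PHF19 and JARID2 were not called. AEBP2, MTF2, PHF1 and LCOR did not pass. EPOP (listed under its older symbol C17orf96), an adaptor of the PHF19 and MTF2 form, was below the abundance set for naming and was picked after its values were seen. It had the largest difference of the list, from 9.28 and 9.22 to 6.48 and 6.26, a fall of 2.88 (SE 0.13, adjusted p = 0.000991 from limma).

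Short promoter windows are shown because 3 of the 4 members that rose hold a form of the E2F consensus, the word bound by factors that drive genes of S phase. Words searched on both strands were TTTCCCGC, TTTGGCGC, TTTCGCGC and TTTGCCGC, in RefSeq windows of 300 bases (250 before to 50 after a gene start, GRCh38.p14). All 10 members had at least 1 window, and 4 of them held a word, which overlapped no other. Of all 27305 genes with a window, 3.99% held one, and of all 35116 windows 3.31%. Each line gives 30 bases in the gene's direction, with the word or its reverse complement in capitals.
EZH2 (chr7:148884272-148884301, minus strand): gggctgccgcgTTTGGCGCtcggtccggtc
SUZ12 (chr17:31936807-31936836, plus strand): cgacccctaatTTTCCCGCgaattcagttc
DNMT1 (chr19:10194937-10194966, minus strand): catcggtttccGCGCGAAAagccggggcgc
EZH1 (chr17:42745137-42745166, minus strand): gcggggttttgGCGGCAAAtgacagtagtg
The words of EZH2 and DNMT1 began 1 base after and 2 bases before the annotated start, that of SUZ12 189 bases before it and that of EZH1 115 bases before it. EZH1, whose values were lower, held a word, and EED, which rose, held none of these 4. Of the 2 windows of EZH2, 1 held a word. A match describes letters only and not binding.

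Proliferation markers were higher in the same libraries as EZH2, SUZ12 and EED. All 18 of 18 rose, with a median of 0.75, near the 0.74 of EZH2 and of DNMT1. SUZ12, at 0.46, was close to the lowest of the 18, PLK1, at 0.43, and EED, at 0.21, was below all of them. Their summed level was 123538 and 125213 normalized reads in control against 219108 and 223608 in the GNA13-deficient pair, with MCM7, a subunit of the replicative helicase, the most abundant and none at 0. TOP2A, a topoisomerase of dividing cells, rose by 1.27 (SE 0.10), AURKB, a mitotic kinase, by 1.11 (SE 0.06) and RRM2, a ribonucleotide reductase subunit, by 1.09 (SE 0.07), with adjusted p values between 0.00128 and 0.00214 from limma. In bulk RNA, more dividing cells and more RNA per cell cannot be told apart, and their part in the rise of EZH2, SUZ12, EED and DNMT1 was not tested.

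**Figure D2:**
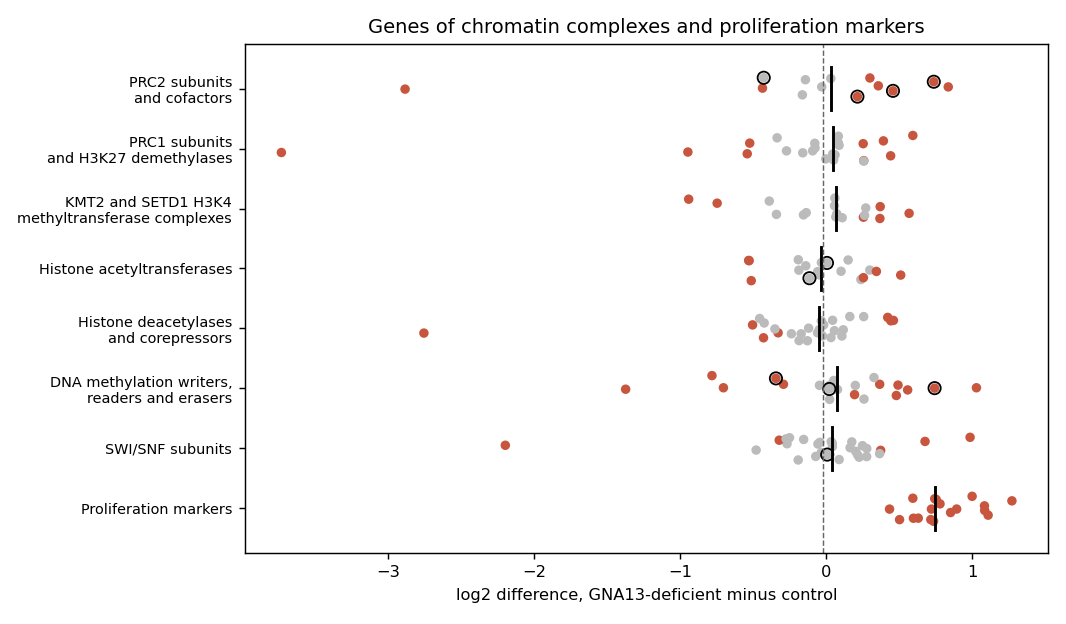
Log2 difference, GNA13-deficient minus control (x axis), of each tested gene of 7 chromatin lists and of the proliferation markers (rows). Red points had an adjusted p under 0.05, circles mark the 10 members, thick bars are list medians and the dashed line is the median of all genes tested. The chromatin lists spread to both sides of 0 with medians from -0.05 to 0.08, while all 18 proliferation markers lie to the right of it.

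Of the DNA methyltransferases among the members, DNMT1 rose and DNMT3A fell. DNMT1, the maintenance enzyme (Entrez 1786, chromosome 19 from 10244018 to 10341962, minus strand), had log2 values of 12.83 and 12.84 in control against 13.65 and 13.51 in the pair labelled GNA13-deficient. Control replicates were 0.01 apart, and the rise of 0.74 (SE 0.07, 95% confidence interval 0.56 to 0.92, adjusted p = 0.00306 from limma) was 1.67-fold. This call was kept in all 11 alternatives that used 4 libraries. DNMT3A, a de novo enzyme (Entrez 1788, chromosome 2 from 25450724 to 25565459, minus strand), had values of 10.01 and 9.90 in control and 9.59 and 9.64 in the others, and both of the latter were lower. It fell by 0.34 (SE 0.07, 95% confidence interval -0.53 to -0.16, adjusted p = 0.0247 from limma). The DNMT3A call was lost with no filter on low values, without a variance trend and after median centring, which left a difference of -0.14.

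DNMT3B, the other de novo enzyme, went the opposite way to DNMT3A. Its values were 9.15 and 9.17 in control against 10.23 and 10.14 in the pair labelled GNA13-deficient, a rise of 1.03 (SE 0.07, adjusted p = 0.00162 from limma). UHRF1, which brings DNMT1 to newly copied DNA, rose by 0.48 (SE 0.06) and HELLS, a remodeler needed for DNA methylation, by 0.56 (SE 0.05). ZBTB4, a reader of methylated DNA, fell by 0.70 (SE 0.08). In the list of 21 DNA methylation genes, all tested and 3 of them members, 7 were called higher and 5 called lower, and the median was 0.08. Calls made up 57.1% of this list, against 29.7% of all genes and 39.8% of genes at least as abundant as EZH1.

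TET2 (Entrez 54790, chromosome 4 from 106067032 to 106200973, plus strand) had values of 9.56 and 9.33 in control against 9.52 and 9.42 in the pair labelled GNA13-deficient. The latter lay between the controls. The difference of 0.02 (95% confidence interval -0.25 to 0.29, adjusted p = 0.910 from limma) does not show that the genotypes were alike. TET3 likewise overlapped, at 0.05 (adjusted p = 0.745 from limma). TET1, the remaining family member, was lower at 7.29 and 7.20 against 6.50 and 6.43, and fell by 0.78 (SE 0.16, adjusted p = 0.0226 from limma), a call that was lost after quantile normalization, where its difference was -0.39.

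**Figure D3:**
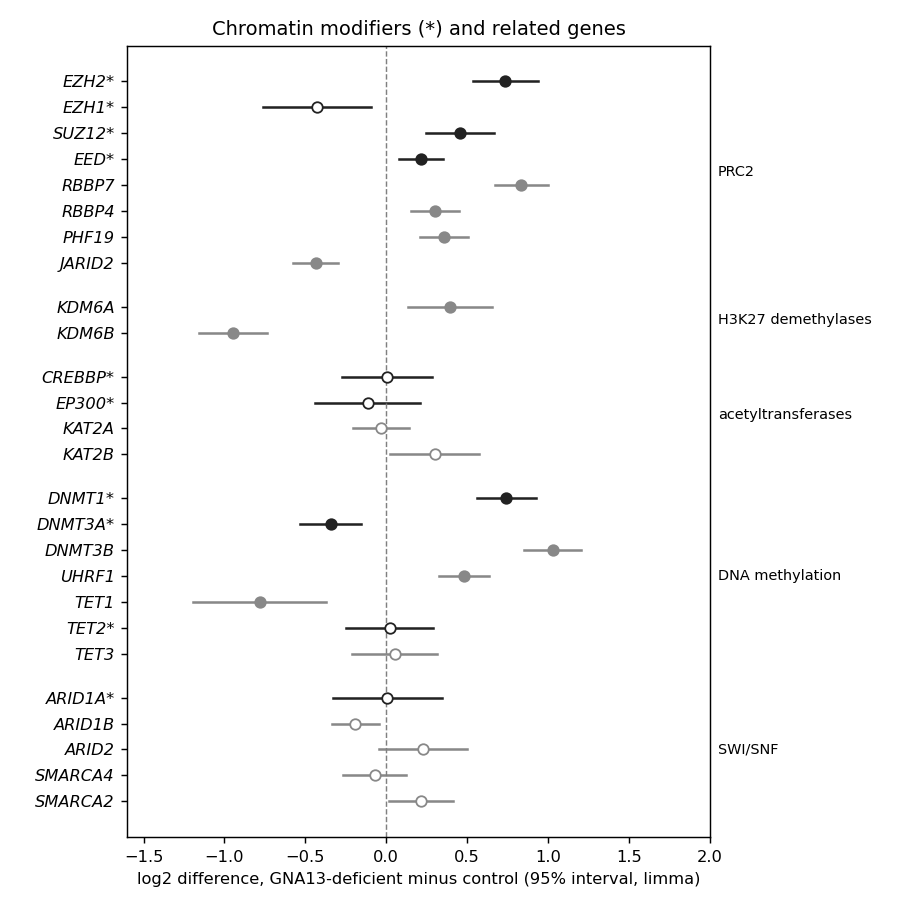
Log2 difference, GNA13-deficient minus control, with its 95% confidence interval from limma (x axis), for the 10 members (black, asterisk) and related genes (gray) ordered by complex. Filled points had an adjusted p under 0.05. EZH2, SUZ12, EED and DNMT1 lie to the right and DNMT3A to the left of 0, and the intervals of CREBBP, EP300, TET2 and ARID1A cross it.

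Ratios within a library set paired enzymes against each other, per kilobase of the canonical GENCODE transcript. The log2 ratio of EZH2 to EZH1 was 2.63 and 2.69 in control against 3.73 and 3.93 in the pair labelled GNA13-deficient, an increase of 1.16 or 2.24-fold. For DNMT1 to DNMT3A it was 3.65 and 3.77 in control and 4.90 and 4.70 in the others, 2.12-fold more. The ratio of DNMT3B to DNMT3A went from 0.25 and 0.38 to 1.77 and 1.62. KDM6A and KDM6B, which remove the PRC2 mark, also parted, with KDM6A 0.39 higher (SE 0.10, adjusted p = 0.0423 from limma, and not called with no filter, with a pseudocount of 10, without a variance trend or under voom) and KDM6B, the form induced by signals, lower by a difference of -0.95 (SE 0.08, adjusted p = 0.00251 from limma). In contrast, the ratio of CREBBP to EP300 was -0.71 and -0.76 against -0.63 and -0.60. None of these 5 ratios overlapped between genotypes. Single genes did not overlap in 65.3% of all genes tested, and no share over other pairs of genes was taken. The change of a log2 ratio follows from the changes of its genes and is no separate result. The smallest p that an exact two-sided permutation test can give with 2 libraries against 2 is 0.333, which each of the 5 reached.

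**Figure D4:**
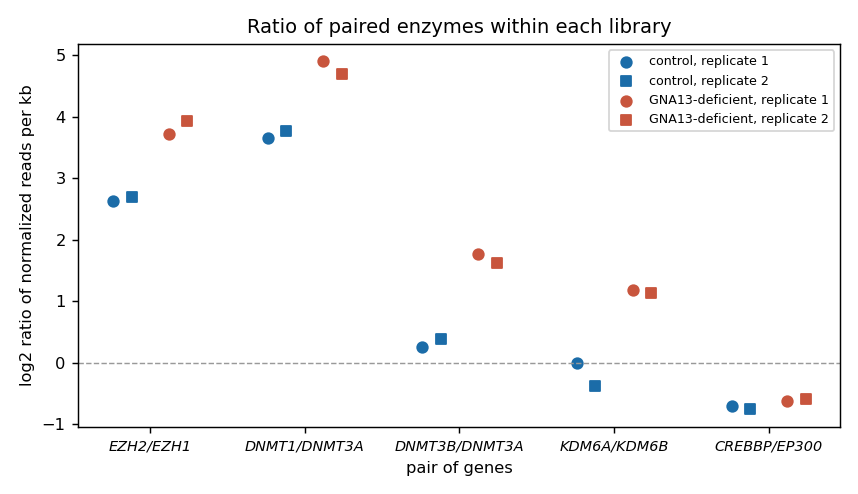
Log2 ratio of normalized reads per kilobase for 5 pairs of genes (x axis) in each library, with control in blue and GNA13-deficient in red. EZH2/EZH1, DNMT1/DNMT3A, DNMT3B/DNMT3A and KDM6A/KDM6B lie at least 1 log2 unit higher in both red libraries on average, while CREBBP/EP300 moves by 0.12.

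CREBBP, EP300 and ARID1A did not pass the test. CREBBP (Entrez 1387, chromosome 16 from 3775055 to 3930714, minus strand) had values of 11.36 and 11.58 in control against 11.58 and 11.37 in the pair labelled GNA13-deficient. The difference was 0.01 (SE 0.11, 95% confidence interval -0.27 to 0.28, adjusted p = 0.980 from limma). EP300 (Entrez 2033, chromosome 22 from 41488596 to 41576081, plus strand) had values of 11.77 and 12.04 in control and 11.91 and 11.67 in the others, a difference of -0.11 (SE 0.13, 95% confidence interval -0.44 to 0.21, adjusted p = 0.537 from limma). ARID1A (Entrez 8289, chromosome 1 from 27019727 to 27108595, plus strand) had values of 12.59 and 12.90 in control and 12.86 and 12.65 in the others. Its difference was also 0.01 (SE 0.13, 95% confidence interval -0.33 to 0.34, adjusted p = 0.979 from limma). Genotypes overlapped for all 3 genes. These intervals do not show that the genotypes were alike.

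The replicates of these 3 genes differed in opposite directions in the 2 genotypes. In each gene control replicate 2 was above control replicate 1 by 0.22 to 0.31, and GNA13-deficient replicate 2 was below GNA13-deficient replicate 1 by 0.21 to 0.24. A search made after seeing this, for genes at least as abundant as EZH1 with the same pattern by over 0.2 in both genotypes, found 44 of 6974 genes (0.631%), and none had the reverse pattern. Besides the 3 members, 5 of these were in the chromatin lists, namely KMT2C, KMT2D, BCORL1, EP400 and TRRAP. The canonical transcripts of the pattern's genes had a median of 13817 bases (43 genes with a length), against 3480 for the 6837 of 6974 with a length, and those of CREBBP, EP300 and ARID1A have 10790, 8779 and 8595. DNMT3A and TET2, of 9421 and 9589 bases, did not show it. The median GC content was 50.7% for the 43 pattern genes, against 47.0% for the 6837. Transcript length and GC content thus differed along with this pattern, and their part in it was not tested.

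**Figure D5:**
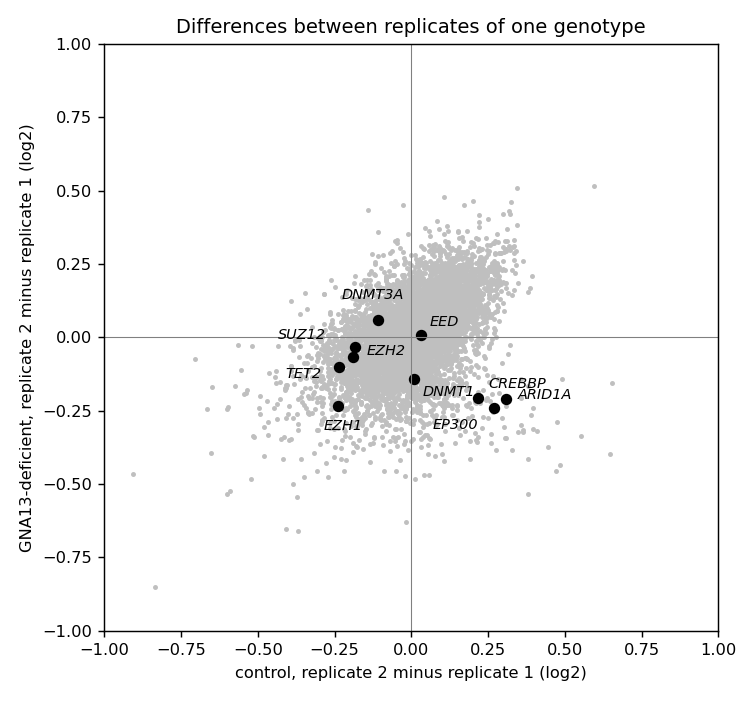
Replicate 2 minus replicate 1 in log2 units for control (x axis) and GNA13-deficient (y axis), for 6974 genes (gray, 4 outside the axes) and the 10 members (black, named). CREBBP, EP300 and ARID1A sit together at the lower right edge of the cloud.

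Other genes of these complexes were mixed. Of 18 histone acetyltransferase genes tested, 3 were higher and 3 lower, with a median of -0.04. This is 33.3% called, against 29.7% of all genes and 39.8% of genes at least as abundant as EZH1. KAT6B (listed as MYST4) fell by 0.53 (SE 0.06), NCOA3 by 0.53 (SE 0.09) and BRPF3, a scaffold for acetyltransferases, by 0.51 (SE 0.11), with adjusted p values from 0.00457 to 0.0246 in limma. The calls of NCOA3 and BRPF3 were lost with no filter and without a variance trend, that of BRPF3 also after median centring. Median centring put KAT6B and NCOA3 at -0.32 and BRPF3 at -0.305. KAT2A and KAT2B did not pass, at -0.03 and 0.30, though KAT2B was called after quantile normalization, after median centring and over genes at or above the median abundance. With 1 library left out KAT2B ranged from 0.20 to 0.40, and median centring put it at 0.51. Of 29 SWI/SNF genes tested, 3 were higher and 2 lower, with a median of 0.04. The 5 calls are 17.2%, against 29.7% of all genes and 39.8% of genes at least as abundant as EZH1. The share of this list depended on the scaling. After median centring, which shifts every difference alike, 14 of 29 were called, with 6235 of 16945 among all genes. BCL7C rose by 0.68 (SE 0.18) and BRD7 by 0.37 (SE 0.10), while BCL7A, also known as a lymphoma gene, fell by 0.32 (SE 0.07), with adjusted p values from 0.0231 to 0.0466 in limma. With a pseudocount of 1 or 10, no filter or no variance trend the calls of BCL7C and BRD7 were lost, and that of BRD7 also under voom. Without control replicate 2 the BRD7 difference was 0.24. That of BCL7A was lost with no filter, without a variance trend and after median centring, where its difference was -0.11. The ATPases SMARCA4 and SMARCA2 were at -0.07 and 0.21 and the paralogs ARID1B and ARID2 at -0.19 and 0.23, none past the threshold. With 1 library left out ARID2 ranged from 0.084 to 0.37 and SMARCA2 from 0.13 to 0.30. Quantile normalization gave calls for SMARCA4 (-0.22) and ARID1B (-0.27) and median centring for SMARCA2 (0.42) and ARID2 (0.43), while centring turned SMARCA4 and ARID1B to 0.14 and 0.017.

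The remaining lists also held genes called in each direction. In the order given here, calls made up 39.1%, 35.3% and 25.9% of the genes tested. This is against 29.7% of all genes and 39.8% of genes at least as abundant as EZH1. For the Polycomb repressive complex 1 (PRC1) subunits and H3K27 demethylases, 5 of 23 genes were higher and 4 lower, with a median of 0.04. PCGF6 rose by 0.59 (SE 0.07) and PCGF3 fell by 0.54 (SE 0.11), both members of the PCGF subunit family. PCGF2, below the abundance set for naming and picked after its values were seen, had 6.50 and 6.72 in control against 2.85 and 2.91 in the pair labelled GNA13-deficient, where it had 7 reads in each. Among 17 genes of the KMT2 and SETD1 complexes, which methylate lysine 4 of histone H3, 4 were higher and 2 lower, with a median of 0.07. MEN1 fell by 0.94 (SE 0.06) and KMT2A (listed as MLL) by 0.75 (SE 0.17), while ASH2L, a core subunit, rose by 0.57 (SE 0.06). The KMT2A values were 10.14 and 10.63 in control and 9.71 and 9.57 in the others. Its difference ranged from -0.99 to -0.50 when 1 library was left out. KMT2D (listed as MLL2), a frequent target of mutation in lymphoma, had 11.36 and 12.01 in control and 11.49 and 11.09 in the others, with a difference of -0.39 that did not pass (adjusted p = 0.307 from limma) and ranged from -0.71 to -0.066 when 1 library was left out. Of 27 histone deacetylase and corepressor genes, 3 were higher and 4 lower, with a median of -0.05. CHD4, a nucleosome remodeling ATPase, rose by 0.46 (SE 0.09) and GPS2 by 0.44 (SE 0.05), and HDAC5 fell by 0.50 (SE 0.06). After median centring the HDAC5 difference was -0.30. With no filter and without a variance trend PCGF3, KMT2A and CHD4 were not called, nor were PCGF3 and KMT2A after median centring or CHD4 after quantile normalization.

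The order of the members in control, per kilobase of canonical transcript on the log2 scale, began with DNMT1 at 10.44. SUZ12 at 9.93, EZH2 at 9.79, ARID1A at 9.65 and EED at 9.62 followed, and neighbors in this run overlapped between libraries. EP300 at 8.77, CREBBP at 8.03, EZH1 at 7.12, DNMT3A at 6.72 and TET2 at 6.19 came next, each apart from its neighbor in both control libraries. In the libraries labelled GNA13-deficient EZH2, at 10.52, stood above SUZ12, at 10.39, and EED, at 9.83, above ARID1A, at 9.65. The other places were as in control.

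Among 147 other genes of the chromatin lists, likeness to EZH2 was measured as the root mean square distance of log2 deviations from each gene's own control mean over the 4 libraries. Such a distance mostly follows the differences between genotypes, so a small value does not show shared regulation. DNMT1 at 0.08, RBBP7 at 0.08 and PCGF6 at 0.11 were closest. The closest to EZH1 were HDAC10 at 0.08, NCOA3 at 0.09 and PHC3 at 0.09. Of these, HDAC10 and PHC3 did not pass the test, with differences of -0.46 and -0.34.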

How the data were processed

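STAR was used by the authors for alignment to hg19, and HTSeq is named in the submitters' processing notes. Versions, annotation and the method of normalization are not given in the sources used here. They deposited log2 normalized reads per gene, with a row of total mapped reads that was used for depth only. On the linear scale the values of up to 400 reads were all whole reads over a constant for each library, within rounding of the third decimal, and read numbers above were recovered in this way. Those over 400 were not checked and are approximate, since rounding of the deposited values can span a read or more. In control replicate 2 a single read falls below 0 on the log2 scale and is listed as 0.
Genes with a value over 0 in 2 or more of the 4 libraries were fitted with limma 3.58.1 in R 4.3.3 (genotype as the only term, 2 residual degrees of freedom, mean-variance trend), with Benjamini-Hochberg adjustment over all genes and a threshold of 0.05. Members, lists and tests were chosen with earlier results of these data known. Listed genes were matched through Entrez IDs to RefSeq symbols. Named genes were the members, GNA13, fixed relatives of the members and, per list, the 3 largest called differences without overlap whose mean was not under the tested genes' median. Coordinates and canonical transcripts are from GENCODE lifted to GRCh37. The pipeline was tested on simulated libraries. Of 200 genes changed by 1 on the log2 scale at a dispersion of 0.003 set by hand, 154 of those among 16582 tested were called in the right direction (77.0%), with 1 unchanged gene called. Alternatives were no filter, stricter filters, pseudocounts of 1 and 10, quantile normalization, median centring, a replicate block, other variance settings, voom and leaving out each library.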

Additional observations from a re-analysis of the deposited data

How the results depend on the processing

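Of 15 alternatives, 14 were planned, and the filter of 2 recovered reads in at least 2 libraries was chosen after seeing the data. No filter gave 1999 genes called and 2 members (EED and DNMT1), and no variance trend 2718 genes and 2 members (EZH2 and DNMT1). What caused this was not tested. Remaining alternatives with 4 libraries called 4083 to 6616 genes and 4 to 6 members. Without any 1 library, limma with 1 residual degree of freedom, where the lone library is assumed to vary like the others, called 0 to 0 genes and 0 to 0 members. Of the calls, 2218 of 5037 were higher on the deposited values, 2741 of 5288 after quantile normalization, 1905 of 5013 under voom and 4311 of 6235 after median centring, which put the all-gene median at 0.18. Under it EZH2 was 0.95, DNMT1 0.95, EZH1 -0.22 and DNMT3A -0.14. EZH2 lost its call with no filter only, SUZ12 also without a variance trend. The replicate number is shared between genotypes but no source says that it pairs them (deviations of same-numbered libraries correlated at 0.45 over 8473 genes). With the replicate block 6616 genes and 6 members were called, EZH1 among them (adjusted p = 0.00905 from limma), as it was under both stricter filters.
Signs reversed for genes that did not pass the test. After quantile normalization CREBBP was -0.033 and ARID1A -0.11, and under voom CREBBP was -0.045, TET2 -0.024 and ARID1A -0.043. After median centring EP300 was 0.094, KAT2A 0.18, ARID1B 0.017 and SMARCA4 0.14. Leaving out 1 library, CREBBP ranged from -0.10 to 0.11, ARID1A from -0.15 to 0.16, EP300 from -0.25 to 0.021, TET2 from -0.096 to 0.14, TET3 from -0.064 to 0.168, KAT2A from -0.080 to 0.015 and SMARCA4 from -0.14 to 0.00050. Over the 11 alternatives with 4 libraries, genes called ranged from 3 to 9 in the PRC2 list, 4 to 11 for PRC1, 2 to 11 for KMT2 and SETD1, 2 to 9 for acetyltransferases, 3 to 12 for deacetylases, 8 to 14 for DNA methylation and 0 to 15 for SWI/SNF. ARID1B, SMARCA2 and KAT2B were also called under the median filter and the replicate block, and ARID1B under voom. Over all 15 alternatives, named genes other than the members lost their call in 151 of 554 values, gained one in 13 and changed sign in 8. These losses include the fits without 1 library, which called no gene at all.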
